A study of Homo sapiens with 19 samples.

Results

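A pair of histone marks was set side by side in MOLM-13 cells, a line of human acute myeloid leukaemia, after Corin treatment: H3K27ac, the acetylation of lysine 27 of histone H3, and H3K4me2, the dimethylation of its lysine 4. The members are 4 CUT&RUN peak lists, 2 of H3K27ac and 2 of H3K4me2, taken from the 19 libraries of the series by mark and treatment. Where the peaks of the 4 lists overlapped they were merged into 54506 regions, and each region was classed by the lists that had a peak in it. Both libraries of both marks had a peak in 13557 regions (24.9%), both H3K27ac libraries and neither H3K4me2 library in 3771 (6.92%), and both H3K4me2 libraries and neither H3K27ac library in 12897 (23.7%). The other 24281 regions (44.5%) were mixed, with a peak in exactly 1 library of at least 1 mark. Cells had been given Corin at 0.1 µM for 24 h, and the labels ask for at least 5000000 reads of 150 bp paired ends per library. The comparison group was MOLM-13 cells given the vehicle DMSO for 24 h, with 2 libraries per mark; the labels list 0.1 µM for these cells too, and what that dose refers to is unclear. The 2 Corin libraries of H3K4me3 served to describe the regions. All libraries come from 1 cell line, and no label says that replicates 1 and 2 were separate cultures, so the spread between them may be technical. Where a pair of values is given below, library 1 comes first.

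H3K27ac lies at active promoters and active enhancers, where acetyltransferases such as p300 place it and histone deacetylases remove it. H3K4me2 lies at promoters and enhancers that are active or poised, and the demethylase LSD1 removes it. LSD1 and the deacetylases HDAC1 and HDAC2 sit together in the CoREST complex, which the transcription factors GFI1 and REST bring to their target genes, and Corin is a dual inhibitor that joins an LSD1 inhibitor and a deacetylase inhibitor in 1 molecule. In myeloid leukaemia cells the LSD1 and GFI1 axis is known for holding back monocyte and granulocyte genes.

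The labelled cell type was checked at the promoters, meaning 1 kb either side of the canonical transcription start site (TSS), of marker genes. Of 10 myeloid markers, 9 had both marks in all 4 libraries and ITGAM had a mixed pattern, beside 37% of all protein-coding promoters with both marks. No T lymphoid marker (of 7), erythroid marker (of 8) or epithelial marker (of 8) had both marks, and of 8 B lymphoid markers CD79A had both. The summed coverage within 10 kb of the myeloid markers' TSSs was 56927 and 46955 bp for H3K27ac, against 0 and 0 bp for the T lymphoid, 970 and 537 bp for the epithelial, 2740 and 1659 bp for the erythroid and 5678 and 7004 bp for the B lymphoid list. H3K4me2 parted the lists less. Its sums were 55747 and 55042 bp for the myeloid, 1654 and 1305 bp for the T lymphoid and 5904 and 5103 bp for the epithelial list. The erythroid list had 15561 and 14995 bp and the B lymphoid list 18525 and 16950 bp. How many cells carry a mark and how much of it each cell carries cannot be told apart in these bulk libraries. Reads were not among the files, so the depth behind a peak is unknown and a region without a peak is not a region shown to lack the mark.

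Stretches of 200 bp are shown here from 6 regions, because the classes differ in how much CpG they hold; capitals mark CpG dinucleotides, and the letters are the plus strand of hg38. Each stretch is the middle of the longest part that all libraries of the class's marks cover, in a region chosen as the widest of its kind that could be shown; none overlaps an annotated UTR. The first is chr1:156494055-156494254, in an intron of MEF2D, from a region with both marks. The second is chr5:178538951-178539150, in an intron of COL23A1 and over 1 kb from any TSS, from another region with both marks. The third is chr2:223464561-223464760, between genes and 135066 bp from the TSS of SCG2, with H3K27ac alone. The next is chr3:185937475-185937674 at the start of TRA2B, with H3K27ac alone beside H3K4me3. The last pair had H3K4me2 alone: chr3:187739832-187740031, in an intron of BCL6, and chr6:27670124-27670323, between genes with H2BC13 as the nearest protein-coding gene.
MEF2D, both marks: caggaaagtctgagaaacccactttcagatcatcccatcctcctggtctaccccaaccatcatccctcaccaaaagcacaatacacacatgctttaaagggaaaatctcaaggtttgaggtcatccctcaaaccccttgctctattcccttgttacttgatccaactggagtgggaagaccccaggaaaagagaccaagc
COL23A1, both marks: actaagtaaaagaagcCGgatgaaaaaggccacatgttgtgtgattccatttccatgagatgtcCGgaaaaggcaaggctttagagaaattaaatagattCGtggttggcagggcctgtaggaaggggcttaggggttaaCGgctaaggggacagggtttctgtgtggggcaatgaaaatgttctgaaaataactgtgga
SCG2, H3K27ac alone: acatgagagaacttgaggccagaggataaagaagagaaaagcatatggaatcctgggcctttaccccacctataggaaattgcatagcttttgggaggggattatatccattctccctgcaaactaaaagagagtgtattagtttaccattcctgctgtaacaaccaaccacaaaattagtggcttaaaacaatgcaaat
TRA2B, H3K27ac alone: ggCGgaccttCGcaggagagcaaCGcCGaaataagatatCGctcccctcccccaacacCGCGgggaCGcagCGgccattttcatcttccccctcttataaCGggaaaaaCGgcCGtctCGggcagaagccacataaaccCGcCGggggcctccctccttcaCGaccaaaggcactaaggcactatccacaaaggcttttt
BCL6, H3K4me2 alone: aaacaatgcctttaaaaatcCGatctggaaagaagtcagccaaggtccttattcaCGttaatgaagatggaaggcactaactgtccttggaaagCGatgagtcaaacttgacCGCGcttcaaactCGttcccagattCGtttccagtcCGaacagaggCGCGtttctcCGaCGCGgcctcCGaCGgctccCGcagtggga
H2BC13, H3K4me2 alone: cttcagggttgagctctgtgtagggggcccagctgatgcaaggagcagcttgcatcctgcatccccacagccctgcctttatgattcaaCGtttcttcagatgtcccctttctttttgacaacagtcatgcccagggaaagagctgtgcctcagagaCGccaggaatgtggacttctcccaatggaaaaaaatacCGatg

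The TRA2B stretch holds 16 CpG dinucleotides and the BCL6 stretch 16, while the SCG2 and MEF2D stretches hold 0. The COL23A1 stretch holds 4 and the H2BC13 stretch 3.

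Across whole libraries, H3K4me2 covered a greater length than H3K27ac, with wider peaks. The H3K27ac lists held 34424 and 30029 peaks and the H3K4me2 lists 41152 and 40042. H3K27ac peaks covered 26.1 and 20.1 Mb, and H3K4me2 peaks 47.4 and 42.2 Mb. Both H3K27ac libraries lay below both H3K4me2 libraries in each of these measures. The difference in covered length was -0.96 on the log2 scale (SD of the difference 0.29, n = 2 libraries per mark), or 1.95-fold in favour of H3K4me2, with an exact two-sided permutation p of 0.333. The median peak was 501.5 and 457 bp wide for H3K27ac and 862 and 782 bp wide for H3K4me2, a log2 difference of -0.78 ± 0.14 (SD, n = 2; exact permutation p = 0.333). The smallest p that 2 libraries against 2 can give is 0.333, so none of these tests could pass 0.05, and the values rest on the separation of the libraries.

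Peaks of H3K4me2 were also more often at promoters. Within 1 kb of an annotated TSS lay 32.3% and 36.0% of the H3K27ac peaks and 46.7% and 48.2% of the H3K4me2 peaks. The 2 marks did not overlap in this share either, and the difference was -13.3 percentage points (SD 2.79, n = 2; exact permutation p = 0.333). In base pairs covered by both libraries of a mark, H3K27ac held 15.3 Mb and H3K4me2 37.9 Mb, of which 8.57 Mb was shared. H3K4me2 lay over 56.0% of that H3K27ac length, and H3K27ac over 22.6% of that H3K4me2 length. No peak of either H3K4me2 library lay over 31.8% of the H3K27ac length, and no peak of either H3K27ac library over 61.1% of the H3K4me2 length.

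The 3 classes parted in their distance to genes. A TSS lay within 1 kb of 57.0% of the regions with both marks (95% Wilson interval 56.2 to 57.8, over regions and covering counting error alone). For regions with H3K27ac alone the share was 9.44% (8.55 to 10.4), and for those with H3K4me2 alone 46.4% (45.5 to 47.2), against 33.0% of all regions. Regions with H3K27ac alone were thus mostly distal, meaning over 1 kb from any TSS, with a median distance to the nearest TSS of 14480 bp, compared with 1746 bp for H3K4me2 alone and 9 bp for both marks. Of the H3K27ac-alone regions, 55.4% lay 10 to 100 kb from a TSS, against 27.3% of those with H3K4me2 alone and 24.0% of those with both. Their midpoints fell in introns in 73.1% of cases, compared with 53.5% for H3K4me2 alone and 63.5% for both marks. Midpoints between genes were commonest for H3K4me2 alone, at 29.4%, against 18.0% for H3K27ac alone. Where a library had to cover at least 50% of a region to count, the order of the shares at a TSS turned, with 44.6% for both marks and 56.9% for H3K4me2 alone, and the class of both marks held 3377 regions. The count of H3K27ac-alone regions moved as well, to 1779 with peaks of a score of at least 100 and to 8736 or 11188 without H3K27ac library 1 or 2.

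The classes parted in width as well. Regions with both marks had a median width of 2120 bp (quartiles 1379 and 3125), those with H3K4me2 alone 875 bp (576 and 1352) and those with H3K27ac alone 614 bp (429 and 916.5). A merged region of 4 lists tends to be wider than one of 2 by construction, so the comparison that is free of this is between the classes with 1 mark. There H3K4me2 regions were wider at a TSS, at 1176 against 614.5 bp, and differed less away from one, at 711 against 614 bp. Mixed regions were the narrowest, with a median of 358 bp.

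**Figure D1:**
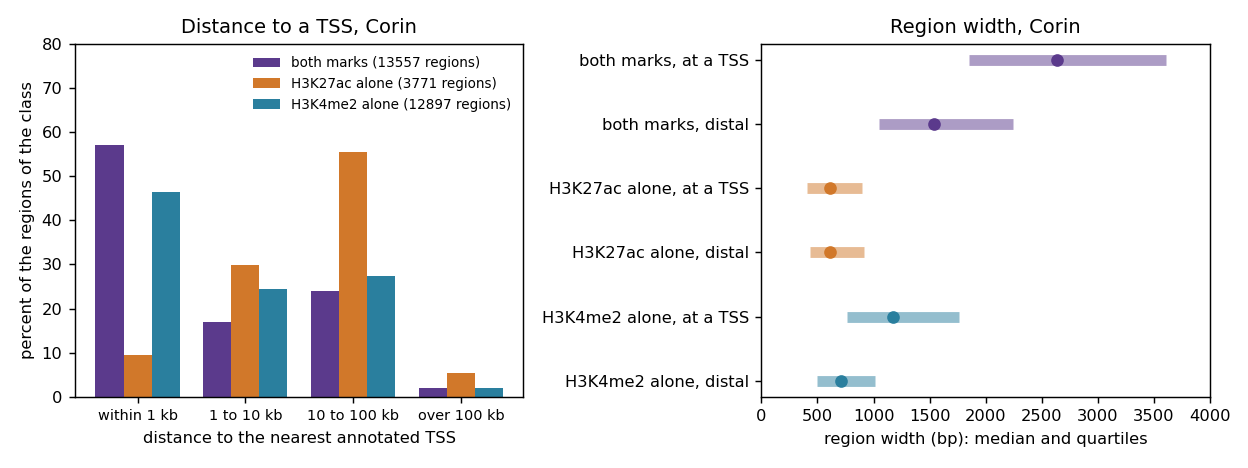
Left, bars give the percent of the regions of each class (vertical axis) in 4 bins of distance to the nearest annotated TSS (horizontal axis). Right, points give the median and thick lines the quartiles of region width in bp, for regions at a TSS and distal ones; H3K27ac-alone regions peak at 10 to 100 kb (55.4%), and regions with both marks at a TSS are the widest (median 2635 bp).

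Peaks in regions with both marks scored higher within their own lists. The score is the authors' own value per peak. Its median percentile within the list was 66.9 and 61.8 for H3K27ac peaks and 65.8 and 60.4 for H3K4me2 peaks of regions with both marks. H3K27ac peaks without H3K4me2 sat at 46.4 and 40.8, and H3K4me2 peaks without H3K27ac at 47.3 and 46.1. Peaks of mixed regions were lowest in each list, between 24.9 and 30.7. The classes were set by whether a peak was called in each library, which may itself depend on the score. How much of this order follows from the class rule was not tested. Regions with both marks took 53.1% and 63.9% of the H3K27ac peaks and 41.3% and 46.1% of the H3K4me2 peaks.

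Whether a region with 1 mark stood clear of the other mark also differed. The nearest peak of either H3K4me2 library lay a median of 2386 bp from a region with H3K27ac alone, and within 500 bp for 21.1% of them. At a TSS the gap was 379.5 bp, and 56.2% of these 356 regions had an H3K4me2 peak within 500 bp. Regions with H3K4me2 alone were more isolated, with a median gap of 18355 bp to the nearest H3K27ac peak and 61.1% of them over 10 kb from one. Just outside the classes were 702 and 362 regions with both H3K27ac libraries and a single H3K4me2 library, and 2947 and 1576 with both H3K4me2 libraries and a single H3K27ac library. Their median widths were 907 and 737 bp, and 1113 and 1176 bp.

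H3K4me3, the trimethylation that marks active and poised promoters, was present in both of its Corin libraries at 53.5% of the regions with both marks, 19.5% of those with H3K4me2 alone and 5.38% of those with H3K27ac alone. Over all regions it was 21.96%, near the share of H3K4me2 alone. At a TSS the shares were 89.5% for both marks, 55.9% for H3K27ac alone (199 of 356) and 38.7% for H3K4me2 alone, against 62.8% of all 17980 TSS regions. Away from a TSS they were 5.76%, 0.117% and 2.88%, against 1.86% of all distal regions. Those 199 TSS regions with H3K27ac and H3K4me3 but no H3K4me2 peak were narrow (median 515 bp) and lay close to H3K4me2 (median gap 180 bp), and 84.9% of them were CpG-rich by the definition given further on. The 156 TSS regions with H3K27ac and neither other mark were CpG-rich in 2.56% of cases and lay 1999 bp from H3K4me2.

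The widest of the TSS regions with H3K27ac and H3K4me3 but no H3K4me2 was at chr7:26199954-26202988, 3035 bp across the shared start of CBX3, a heterochromatin protein, and HNRNPA2B1, an RNA-binding splicing factor. H3K27ac covered 3035 and 2072 bp of it, H3K4me3 3035 bp in both libraries and H3K4me2 0 bp in both. The TRA2B region shown above, at the start of another splicing factor, measured 1719 bp, and the STAG2 region, at the start of a cohesin subunit, 1625 bp. HOXA9, the homeobox gene that MLL-rearranged leukaemias express, had such a region of 1593 bp (chr7:27163938-27165530), and an internal RUNX1 promoter one of 1532 bp. RUNX1 encodes a core haematopoietic transcription factor. The HOXA9 region lay 7 bp from the canonical TSS, and H3K4me2 peaks lay elsewhere in the window around it, as the values below show. The RUNX1 region lay 161942 bp from the canonical TSS, so the RUNX1 values below are of another promoter.

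Coverage by position was then measured across promoters. Positions around the canonical TSS of the 7398 protein-coding genes whose promoter had both marks (37% of 20007) were scored for whether a peak covered them. At the TSS itself H3K27ac peaks covered 64.9% and 63.2% of these promoters and H3K4me2 peaks 45.3% and 43.3%. At 100 bp into the gene H3K27ac reached 79.7% and 78.9% and H3K4me3 94.5% and 94.3%, while H3K4me2 was at 49.7% and 47.9%. H3K4me2 thus had its low point at the start site, flanked by 73.6% and 68.5% at 500 bp upstream and by 86.8% and 81.9% at 900 bp downstream. H3K27ac was down to 34.9% and 27.5% at that downstream position. At promoters with H3K4me2 alone the mark was instead at its highest around the start, covering 75.3% and 75.6% of them at the TSS, 56.7% and 53.4% at 500 bp upstream and 54.2% and 52.0% at 900 bp downstream.

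**Figure D2:**
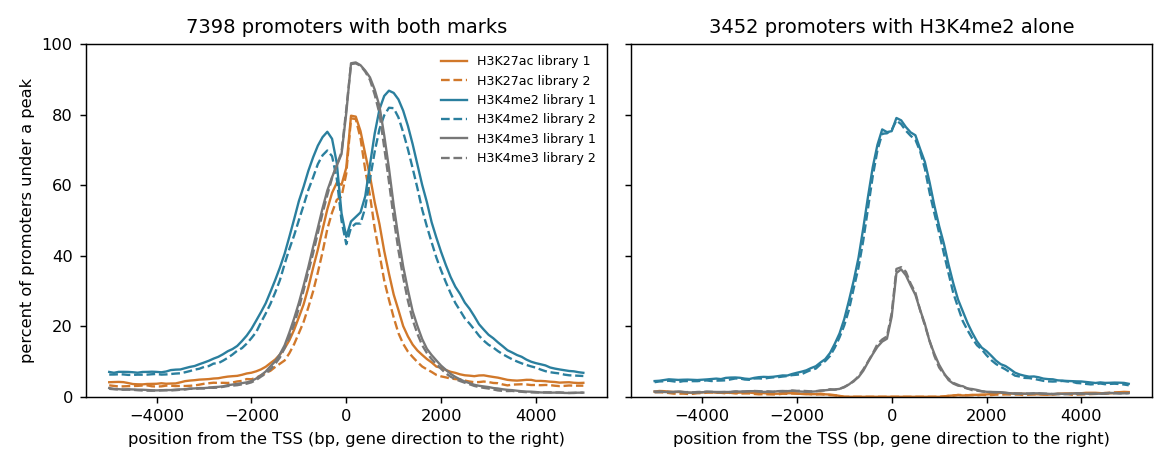
Percent of promoters (vertical axis) whose position at a given distance from the TSS in bp (horizontal axis) lay under a peak, for 7398 promoters with both marks (left) and 3452 with H3K4me2 alone (right); solid and dashed lines are libraries 1 and 2 of each mark in Corin. On the left H3K4me2 falls to 45.3% and 43.3% at the TSS between 2 shoulders, whereas on the right it stays at 75.3% and 75.6%.

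Inside the 13557 regions with both marks the H3K4me2 peaks covered more than the H3K27ac peaks in most cases. Both H3K4me2 libraries covered more than both H3K27ac libraries in 8185 regions (60.4%), and the reverse held in 2000 (14.8%). At a TSS the shares were 76.5% and 6.29%, and away from one 39% and 26%. Median coverage in a distal region was 1000 and 760 bp for H3K27ac and 1101 and 964 bp for H3K4me2, ranges that overlapped. Across these regions the mean widths of the 2 marks had a Spearman correlation of 0.493 (n = 13557 regions, which share libraries and are not independent).

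The widest region with both marks was 19432 bp at MEF2D, a MADS-box transcription factor (chr1:156486913-156506344), with 18498 and 17679 bp under H3K27ac and 16555 and 16321 bp under H3K4me2. It was followed by regions at DACH1 (18339 bp), GFI1 (16639 bp), LAMP5 (16485 bp) and ARHGEF2 (16016 bp). GFI1 is the repressor that recruits CoREST in myeloid cells, and its region carried 16056 and 12281 bp of H3K27ac against 9968 and 9083 bp of H3K4me2. DACH1, a transcriptional cofactor, and LAMP5, a lysosome-associated membrane protein, had more H3K4me2: 15736 and 15500 bp against 13193 and 10329 bp at DACH1. These 5 regions all carried H3K4me3 in both libraries and all 4 DMSO lists of the 2 marks.

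Away from promoters the widest were in an intron of the long non-coding RNA gene CCDC26 on chromosome 8 (15866 bp) and in an intron of COL23A1, a collagen gene (15493 bp, chr5:178531801-178547293). In the COL23A1 region H3K27ac covered 14058 and 14097 bp and H3K4me2 1684 and 1361 bp, so that the class of both marks held here for a small share of the region. The next, of 12655 bp, lay 1366 bp from the TSS of LCP1, the leukocyte actin-bundling protein, with the order turned: 12655 and 11837 bp of H3K4me2 against 7555 and 6161 bp of H3K27ac.

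H3K27ac without H3K4me2 was found most often inside introns, and many such regions could lie in 1 gene. The widest such region also lay in CCDC26 (8706 bp), and another of 5040 bp in the same gene overlapped a TSS. The next, of 7589 bp, lay between genes at chr2:223459707-223467295, 135066 bp from the TSS of SCG2, a secreted neuroendocrine granin. FRY, which encodes a microtubule-binding protein, and ZNF438, a zinc finger gene, each held one in an intron, of 4296 and 4260 bp. Chromosome 8 held 7.58% of all H3K27ac-alone regions and 5.20% of all regions, and 10.1% of its regions were of this class, against 5.59% to 8.72% on chromosomes other than 8.

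Counted by nearest protein-coding gene, ETV6 had the most H3K27ac-alone regions, 25, followed by JARID2 with 20, RREB1 with 18, COL23A1 with 18 and TOMM20 with 17. ETV6 is an ETS-family repressor needed in haematopoiesis, JARID2 a subunit of the Polycomb complex PRC2, RREB1 a zinc finger factor downstream of RAS, and TOMM20 an import receptor of mitochondria. Of the 20007 genes, 9.18% were nearest to at least 1 distal H3K27ac-alone region. Within the 245704 bp of the ETV6 gene body H3K27ac covered 73162 and 54670 bp and H3K4me2 14020 and 11838 bp. Both H3K27ac libraries were thus above both H3K4me2 libraries, with 29 H3K27ac-alone regions, 7 with both marks and 0 with H3K4me2 alone inside the gene. The same gene held 28452 and 28564 bp of H3K27ac and 11621 and 10807 bp of H3K4me2 in DMSO.

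Gene bodies with more H3K27ac than H3K4me2 in both libraries numbered 819 (4.09%), and those with the reverse 11005 (55%). COL23A1 came second to ETV6, with 62539 and 51192 bp of H3K27ac against 13668 and 10014 bp of H3K4me2 and 26 H3K27ac-alone regions. AHRR, the repressor of the aryl hydrocarbon receptor, had 36042 and 34302 bp against 8525 and 6822 bp. RREB1 had 55739 and 40932 bp against 23903 and 22017 bp. INPP5D encodes SHIP1, a lipid phosphatase of blood cells, and showed 30621 and 27823 bp against 10788 and 10169 bp. FRY had 45320 and 27662 bp against 15920 and 12995 bp, and MYB, the progenitor transcription factor, 21090 and 13839 bp against 9195 and 7982 bp. At the other end BCOR, a Polycomb corepressor, had 29103 and 26407 bp of H3K4me2 against 9826 and 7309 bp of H3K27ac, and SMAD3, a transducer of TGF-beta signalling, 18118 and 17549 bp against 1655 and 2429 bp. Within 10 kb of the TSS ETV6 also had more H3K27ac, at 5009 and 4487 bp against 3831 and 3204 bp of H3K4me2. COL23A1 had the reverse there, with 1538 and 1864 bp of H3K27ac against 3609 and 3384 bp of H3K4me2. The gene-body genes AHRR, INPP5D and SMAD3 were chosen after their values were seen.

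Regions with both marks were most numerous near RREB1 (24), MBNL1 (22), JARID2 (17), CITED2 (17) and ZFP36L2 (16). MBNL1 is a splicing regulator, CITED2 a cofactor of p300 and ZFP36L2 a protein that destabilises AU-rich mRNAs. Distal regions with both marks were nearest to 16.5% of all genes. RREB1 and JARID2 were among the first 5 genes both for regions with both marks and for regions with H3K27ac alone.

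H3K4me2 without H3K27ac had its widest region, 9384 bp, at chr3:187736957-187746340 over the first part of BCL6, a repressor of lymphoid and myeloid genes. H3K4me2 covered 9018 and 8562 bp of it, H3K27ac 0 bp in both libraries and H3K4me3 1386 and 1164 bp. The annotation also places the start of an unnamed protein-coding gene (ENSG00000285938) in that region. Next came HES7, a segmentation clock repressor (7605 bp), TRHDE, a hormone-degrading peptidase (7398 bp), a start site on chromosome 6 with BTN3A2 as its nearest protein-coding gene (6785 bp), and BCL2L11, which encodes the apoptosis inducer BIM (6614 bp). All 5 had H3K4me2 in both DMSO libraries, and at BCL2L11 1 DMSO library of H3K27ac also had a peak.

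The distal regions with H3K4me2 alone were widest near H2BC13, a histone H2B gene (6444 bp), CBX8, a Polycomb chromobox protein (5384 bp), and HMGN4, a nucleosome-binding protein (4682 bp). The near-H2BC13 and near-HMGN4 regions lie in the histone gene stretch of chromosome 6. The genes with the most H3K4me2-alone regions were TRIM27 (18), ZNF184 (16), BCOR (15), ASAP1 (15) and SCAND3 (14). TRIM27, ZNF184 and SCAND3 also lie in that stretch of chromosome 6, and ASAP1 encodes an ARF GTPase-activating protein. Distal H3K4me2-alone regions were nearest to 22.2% of all genes.

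That stretch is rich in tRNA genes, so the overlap with them was counted, a comparison chosen after the regions had been seen. Each tRNA gene was classed by the peaks over the gene itself, not by the class of a merged region. Of 443 tRNA genes in the RefSeq annotation, 82 (18.5%) overlapped peaks of both H3K4me2 libraries and of neither H3K27ac library. The reverse held for 1 (0.226%), and 0 overlapped peaks of all 4 libraries. No peak lay over 295 (66.6%), and 65 (14.7%) were mixed. The 18.5% was near the 17.3% of protein-coding promoters with H3K4me2 alone, which are wider windows. A peak of H3K4me2 covered 126 and 103 of them in the 2 libraries, and a peak of H3K27ac 8 and 6. On chromosome 6 between 26 and 29 Mb, 52 of 144 tRNA genes (36.1%) were under H3K4me2 alone and 0 under both marks or H3K27ac alone. Another 69 (47.9%) were under no peak and 23 were mixed. By merged region, a tRNA gene overlapped 27 regions with both marks (0.199%) and 73 with H3K4me2 alone (0.566%). For H3K27ac alone the count was 0, beside 0.213% of all regions.

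The sequence at the middle of the regions differed between the classes. Over 300 bp at the midpoint, the median GC content was 51.3% for both marks, 49.3% for H3K27ac alone and 52.7% for H3K4me2 alone. A window was called CpG-rich when its GC content was at least 50% and its observed over expected CpG ratio at least 0.6, a short-window form of the CpG island definition. By that measure 25.4%, 5.01% and 31.3% were CpG-rich, in the same order, against 17.2% of all regions. Away from promoters the order was the same, with 3.21% for both marks, 0.439% for H3K27ac alone and 14.0% for H3K4me2 alone, against 4.18% of all distal regions. At a TSS it was not, with 42.2% for both marks, 48.9% for H3K27ac alone and 51.3% for H3K4me2 alone, against 43.6% of all TSS regions. CpG content and distance to a TSS move together here, and their separate parts were not tested.

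Short sequence motifs, 10 in all, were counted on both strands of the same windows, and 7 are given here. GGGCGG, a GC box that SP1 binds, was in 17.3% of the distal H3K4me2-alone windows, 9.43% of those with both marks and 5.97% of those with H3K27ac alone, against 9.20% of all distal windows. TGTGGTT, a RUNX core, was in 10.1%, 8.56% and 6.44%, against 8.24%. GAGGAAGT, a PU.1 site, was in 4.97%, 5.35% and 3.48%, against 4.47%, and TGANTCA, the AP-1 site, in 15.6%, 14.8% and 11.3%, against 14.2%. A core of the CTCF site was in 2.14%, 1.23% and 0.703%, against 1.27%. H3K27ac-alone windows held the lowest share of each of these 5 among the 3 classes. AGATAAG, the GATA site, did not follow this, at 3.46%, 3.84% and 3.87%, against 4.08%. Nor did AAATCAC, a GFI1 core, at 4.11%, 3.98% and 4.07%, against 4.28%. For both of these motifs all 3 classes lay below the share of all distal windows. The windows share sequence composition within a class, so the shares are a description. GGGCGG can also lie inside longer GC-rich runs, and a match is letters in a window and not a bound site.

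Promoters of the 20007 protein-coding genes fell into both marks (7398, 37%), H3K4me2 alone (3452, 17.3%), H3K27ac alone (54, 0.27%), neither mark (7275, 36.4%) and mixed (1828, 9.14%). With equal peak numbers 145 promoters had H3K27ac alone. H3K4me3 was present in both libraries at 97.2% of the promoters with both marks, 63.0% of those with H3K27ac alone and 39.9% of those with H3K4me2 alone. Around the TSS, within 10 kb either side, both H3K27ac libraries covered more than both H3K4me2 libraries in 374 genes (1.87%) and the reverse held in 12158 (60.8%). The rest overlapped. The count of 374 became 816 without H3K27ac library 2 and 710 without H3K4me2 library 1. Windows of neighbouring genes can share peaks.

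**Figure D3:**
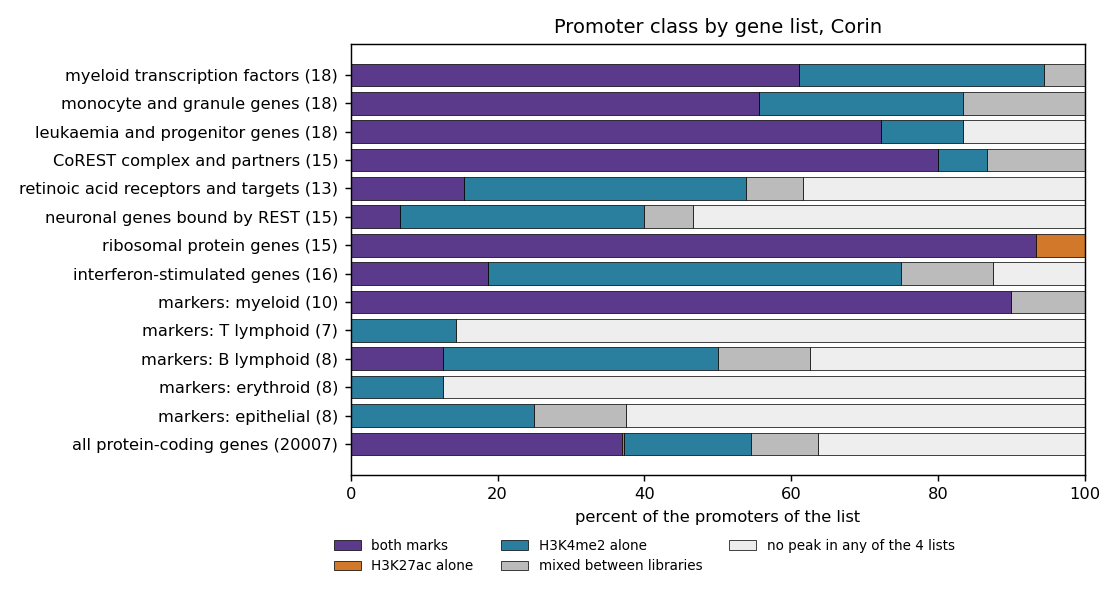
Percent of the promoters of each gene list (horizontal axis) in 5 classes by the 4 Corin lists; numbers in brackets are the members found, and the lowest bar is all 20007 protein-coding genes. Ribosomal protein genes and myeloid markers are mostly in the class of both marks, and interferon-stimulated genes have the longest H3K4me2-alone bar (56.3%).

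Genes of the CoREST complex and its partners, the target of Corin, had both marks at 12 of 15 promoters (37% of all promoters). KDM1A, which encodes LSD1, carried 1334 and 770 bp of H3K27ac and 3971 and 2366 bp of H3K4me2 within 10 kb of its TSS. HDAC1 carried 1223 and 1187 bp against 1699 and 1597 bp, and HDAC2 2258 and 2282 bp against 3327 and 2939 bp. H3K4me2 was the broader mark at all 3, and at 13 of the 15 genes (background 60.8%). RCOR1, the CoREST scaffold itself, overlapped between the marks, at 2929 and 2580 bp against 3145 and 2807 bp. The paralogue RCOR2 had H3K4me2 alone, at 0 and 0 bp against 2143 and 2419 bp. HMG20B, a DNA-bending subunit, and GFI1B, the erythroid relative of GFI1, had mixed promoters. The list's median difference was -1944 bp, beside -918.5 bp over all genes. With equal peak numbers it was -1095.5 bp, beside -759 bp over all genes, and H3K4me2 was broader at 10 of the 15.

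Of 18 myeloid transcription factors, 11 had both marks at the promoter (37% of all promoters), 6 had H3K4me2 alone (17.3%) and FOS was mixed. The median difference between H3K27ac and H3K4me2 was -2242.5 bp, beside -918.5 bp over all genes. H3K4me2 was broader at 14 genes (60.8% of all genes) and H3K27ac at GFI1 and SPI1 (1.87%). GFI1 had 12725 and 10612 bp of H3K27ac against 6668 and 7021 bp of H3K4me2. SPI1, which encodes the myeloid regulator PU.1, had 6405 and 6186 bp against 5326 and 5564 bp. CEBPA, the granulocyte-lineage factor, had 9387 and 7666 bp against 7706 and 7085 bp, values that overlapped in their range.

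The promoters with H3K4me2 alone included those of BCL6, IRF8, EGR2, KLF2 and KLF4, factors of monocyte and macrophage differentiation apart from BCL6 and KLF2, which are better known in lymphocytes. BCL6 had 0 and 0 bp of H3K27ac against 9018 and 8562 bp of H3K4me2, and EGR2 0 and 0 bp against 5245 and 4715 bp. KLF4 had 0 and 0 bp against 3170 and 3189 bp, and KLF2 222 and 0 bp against 4246 and 4586 bp. These 4 genes were at 0 or near 0 for H3K27ac in both libraries while both H3K4me2 libraries covered over 1 kb. With IRF8, all 5 had H3K4me2 alone at the promoter in DMSO too. H3K4me3 was present in both libraries at the promoters of IRF8, EGR2, KLF2 and KLF4, and in 1 at BCL6.

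IRF8, the monocyte and dendritic cell factor, parted its promoter from its surroundings. Its 10 kb window held 1462 and 569 bp of H3K27ac against 7878 and 6161 bp of H3K4me2, and its promoter no H3K27ac peak. Nearest to the gene, however, lay 8 regions with both marks and 7 with H3K27ac alone, and 0 with H3K4me2 alone. KLF4 and KLF6 differed from this: KLF4 had 4 regions with both marks, 1 with H3K27ac alone and 9 with H3K4me2 alone, and KLF6, a related zinc finger factor, 3, 0 and 10. ZEB2, a repressor that myeloid cells need, had 6, 14 and 3. KLF6 and ZEB2 fall outside the naming rule and were chosen after their values were seen.

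Monocyte and granule genes ranged from the largest H3K27ac excess to H3K4me2 alone. MPO, the myeloperoxidase of primary granules, had the largest H3K27ac excess of all genes whose libraries did not overlap between the marks, at 10706 and 7857 bp against 2412 and 3643 bp of H3K4me2. AZU1, which encodes the granule protein azurocidin, had 13347 and 12592 bp against 12279 and 12079 bp, a difference that turned to -343.5 bp with peaks of a score of at least 100. Both genes had both marks at the promoter, and MPO had 0 bp of H3K4me3 within 10 kb in both libraries. S100A8 and S100A9, the calprotectin subunits of mature monocytes and neutrophils, had H3K4me2 alone: 0 and 0 bp against 1846 and 1269 bp at S100A8, and 0 and 0 bp against 768 and 1139 bp at S100A9. CD14, the endotoxin co-receptor, and CD86, a costimulatory ligand, also had H3K4me2 alone at the promoter. CD86 had 500 and 1149 bp of H3K27ac against 4712 and 3424 bp of H3K4me2 in its window. CSF1R, the receptor for the macrophage growth factor, had both marks at the promoter and 1235 and 690 bp against 5369 and 5318 bp. Of the 18 promoters, 10 had both marks (37% of all promoters), 5 H3K4me2 alone (17.3%) and 3, ITGAX, ITGAM and FCGR1A, were mixed (9.14%). The median difference was -1578.5 bp, beside -918.5 bp over all genes.

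Of 18 leukaemia and progenitor genes, 13 promoters had both marks, beside 37% of all promoters. MEIS1 and KIT had H3K4me2 alone (2 of 18, beside 17.3%), and CD34, ERG and RUNX2 neither mark (3 of 18, beside 36.4%). MYB was the single gene of the list with more H3K27ac, 13870 and 10915 bp against 10542 and 9220 bp, and had 9 regions with both marks, 11 with H3K27ac alone and 0 with H3K4me2 alone nearest to it. MEF2C, a factor that MLL-rearranged leukaemias use, had 8415 and 6015 bp against 15146 and 13964 bp, a difference that turned to 626 bp within 2 kb of the TSS. SATB1, a chromatin organiser, had 10620 and 6826 bp against 16035 and 13616 bp. HOXA9 had 12728 and 10986 bp of H3K27ac against 13756 and 13541 bp of H3K4me2, and RUNX1 1860 and 2295 bp against 6406 and 5700 bp. MEIS1, the cofactor of HOXA9, had 7669 and 5869 bp against 11667 and 10557 bp in its window although its promoter had no H3K27ac peak.

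The 18 genes were nearest to 64 distal regions with both marks, 66 with H3K27ac alone and 25 with H3K4me2 alone, beside 5831, 3415 and 6916 over all genes. At least 1 distal H3K27ac-alone region was nearest to 10 of the 18 genes, against 9.18% of all genes, at least 1 distal region with both marks to 13, against 16.5%, and at least 1 distal H3K4me2-alone region to 11, against 22.2%. CDK6, the cell cycle kinase, had 11 regions with both marks, 11 with H3K27ac alone and 2 with H3K4me2 alone nearest to it, and MYC, the growth regulator, 7, 14 and 4. RUNX1 had 14, 11 and 5. CD34, the stem cell antigen, had no mark at its promoter and 6, 2 and 3 regions nearest to it. HOXA9, RUNX1, CDK6 and MYC, and SPI1, KDM1A, HDAC1, HDAC2 and RCOR1 above, were named after their values were seen. A gene with a wide intergenic neighbourhood is nearest to more regions, and the counts are not adjusted for that.

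**Figure D4:**
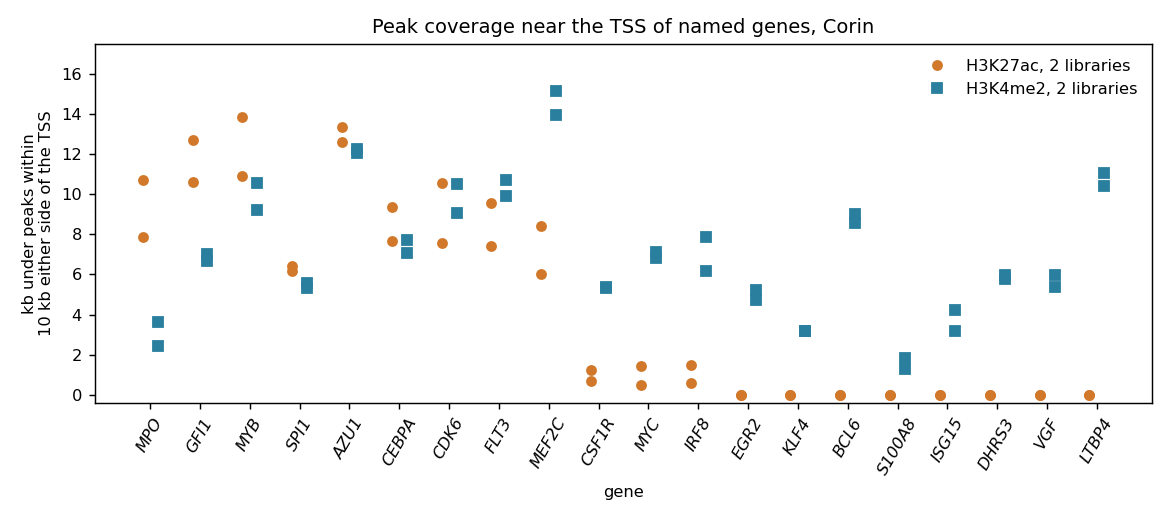
Coverage in kb under peaks within 10 kb either side of the TSS (vertical axis) for 20 genes (horizontal axis); circles are the 2 H3K27ac and squares the 2 H3K4me2 libraries in Corin. H3K27ac lies above H3K4me2 at MPO, GFI1, MYB, SPI1 and AZU1 (where it turns to -343.5 bp at a score of at least 100), overlaps it at CEBPA and CDK6, and is at 0 in both libraries at EGR2, KLF4, BCL6, S100A8, ISG15, DHRS3, VGF and LTBP4.

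Interferon-stimulated genes had the largest share of promoters with H3K4me2 alone among the lists, 9 of 16, beside 17.3% of all promoters. ISG15, a ubiquitin-like antiviral protein, had 0 and 0 bp of H3K27ac against 4241 and 3174 bp of H3K4me2, and IFIT3, an antiviral RNA-sensing partner, 0 and 0 bp against 3002 and 2599 bp. Other members differed from these: XAF1 and IRF9 were among the 3 with both marks, STAT2 and IRF7 were mixed, and IFI44L and OAS2 had neither mark. XAF1, a proapoptotic protein, had 2541 and 2113 bp against 4567 and 3896 bp. IRF9, the DNA-binding subunit of the interferon complex ISGF3, was the gene with slightly more H3K27ac, at 896 and 865 bp against 775 and 665 bp, which turned to a difference of -245.5 bp with peaks of a score of at least 100. The median difference of the list was -1191 bp, beside -918.5 bp over all genes.

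Retinoic acid receptors and targets had both marks at 2 of 13 promoters, RXRB and RXRA, H3K4me2 alone at 5 and neither at 5, beside 37%, 17.3% and 36.4% of all promoters. The share with neither mark was near that background. DHRS3, a retinaldehyde reductase, had 0 and 0 bp against 5759 and 5980 bp. RXRA, the common partner of nuclear receptors, had 2083 and 1966 bp against 6267 and 5841 bp, and RARA, the receptor for all-trans retinoic acid, had a mixed promoter with 2531 and 898 bp against 2072 and 2076 bp. TGM2, a transglutaminase, and STRA6, a retinol transporter, had neither mark at the promoter. The list's median difference of -935.5 bp was close to the -918.5 bp over all genes.

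Neuronal genes bound by REST, the other factor that brings CoREST to DNA, had both marks at 1 of 15 promoters, CELSR3 (37% of all promoters). A further 5 had H3K4me2 alone (VGF, BDNF, SNAP25, SYP and L1CAM), 8 neither mark and CHRNB2 a mixed pattern. VGF, a secreted neuropeptide precursor, had 0 and 0 bp against 5353 and 5993 bp, and BDNF, the neurotrophin, 0 and 0 bp against 2818 and 2798 bp. The H3K4me2-alone share was 5 of 15, beside 17.3% of all promoters, and the share without either mark 8 of 15, beside 36.4%. The list's median difference was -767.5 bp, beside -918.5 bp over all genes, and 0 members had more H3K27ac (1.87% of all genes).

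Ribosomal protein genes, which all growing cells transcribe, had both marks at 14 of 15 promoters, beside 37% of all promoters. The exception was RPS3, with H3K27ac alone within 1 kb of the TSS and H3K4me2 farther out: 4161 and 2462 bp of H3K27ac against 3220 and 2699 bp of H3K4me2 within 10 kb. RPL8 had 6088 and 5329 bp against 10661 and 9845 bp and RPLP0 4686 and 4104 bp against 8055 and 6882 bp. RPS19 had the reverse, with 6485 and 5886 bp against 3731 and 4373 bp. With peaks of a score of at least 100, 0 of the 15 genes had H3K27ac broader in both libraries. H3K4me2 was broader at 10 of the 15, a share near the 60.8% of all genes, and the median difference was -1913.5 bp, beside -918.5 bp.

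Among all genes, the largest H3K27ac excess after MPO was at ANKRD13D, an ankyrin repeat protein (6764 and 9180 bp against 2164 and 2774 bp), H4C11, a histone H4 gene (13213 and 9104 bp against 6397 and 4947 bp), GFI1 (above) and EFCAB2, an EF-hand protein (12589 and 9572 bp against 8116 and 4806 bp). The largest H3K4me2 excess was at LTBP4, a binding protein of latent TGF-beta, with 0 and 0 bp of H3K27ac against 11047 and 10409 bp. ALOXE3, an epidermal lipoxygenase, had 0 and 0 bp against 10219 and 9790 bp. HOXA11 had 5351 and 5464 bp against 15942 and 14373 bp, RPL23A 4027 and 3145 bp against 13421 and 12989 bp, and PDE4A, a cAMP phosphodiesterase, 2639 and 3126 bp against 12599 and 12081 bp. LTBP4 and ALOXE3 had H3K4me2 alone at the promoter with H3K4me3 in their windows (2799 and 2656 bp, and 7010 and 6412 bp), while HOXA11, RPL23A and PDE4A had both marks. The difference turned at ANKRD13D within 2 kb of the TSS (-312 bp) and in the gene body (-1046 bp), and at H4C11 in the gene body (-4.5 bp).

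The classes were then read in the 4 DMSO lists of the same marks. Of the regions with both marks in Corin, 56.1% had both marks in DMSO, 10.8% H3K4me2 alone, 1.25% H3K27ac alone and 2.48% no peak. Of those with H3K27ac alone, 18.7% had H3K27ac alone in DMSO and 45.5% no peak of either mark in any DMSO library, beside 37.2% of all regions without one. Among distal regions that share was 47.4% for H3K27ac alone and 51.3% for all of them, so it was not above the background. Of those with H3K4me2 alone, 59.6% had H3K4me2 alone in DMSO and 19.7% no peak. The share without a DMSO peak was 33.2% for distal and 4.10% for TSS regions with H3K4me2 alone, beside 51.3% and 8.43% of all distal and all TSS regions. Over all regions 14.5% had both marks in DMSO, 21.2% H3K4me2 alone and 2.35% H3K27ac alone. At promoters, 87.6% of the 3452 with H3K4me2 alone in Corin had H3K4me2 alone in DMSO, and 67.9% of the 7398 with both marks had both.

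**Figure D5:**
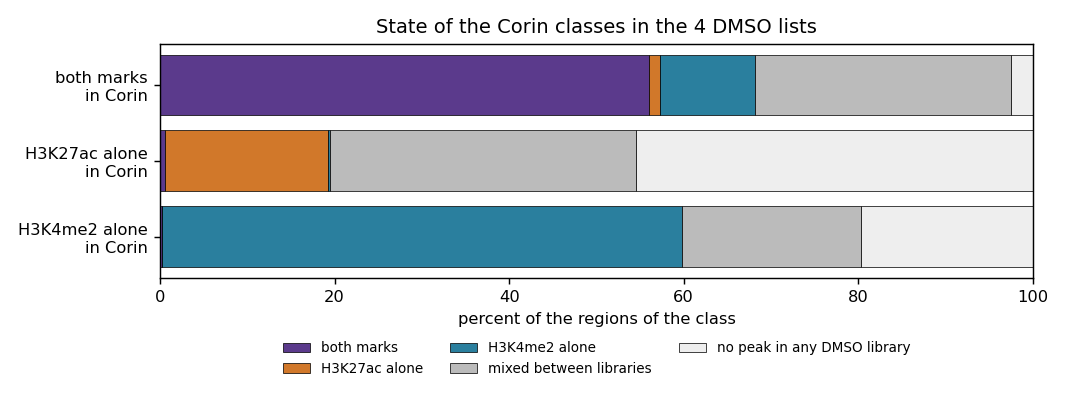
Each bar is a Corin class, divided by the state of its regions in the 4 DMSO lists (horizontal axis, percent of regions). The part with no peak in any DMSO list is 2.48% for both marks, 45.5% for H3K27ac alone and 19.7% for H3K4me2 alone, beside 37.2% of all regions.

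DMSO libraries classed in the same way gave 39999 regions, of which 7894 had both marks, 1656 H3K27ac alone and 12073 H3K4me2 alone. The DMSO lists are shorter, 17599 and 19995 peaks for H3K27ac and 30896 and 32299 for H3K4me2, and the part of list length in the class sizes was not tested. As a share of each treatment's regions, both marks took 24.9% in Corin and 19.7% in DMSO, H3K27ac alone 6.92% and 4.14%, and H3K4me2 alone 23.7% and 30.2%. Both marks and H3K27ac alone thus held larger shares in Corin and H3K4me2 alone a larger share in DMSO, each from 1 set of regions per treatment and with no test. Taken by library pairs of the same number, H3K27ac lay over 32.0% and 27.5% of the H3K4me2 length in Corin and over 19.3% and 22.1% in DMSO. The Corin pairs were above both DMSO pairs, by 9.07 percentage points (SD 3.76, n = 2 pairs; exact permutation p = 0.333). H3K4me2 lay over 58.0% and 57.6% of the H3K27ac length in Corin and over 58.2% and 64.3% in DMSO, a difference of -3.40 points (SD 4.29, n = 2; exact permutation p = 0.333) that was smaller than its spread. In DMSO the H3K27ac and H3K4me2 lists differed in the share of peaks at a TSS by -13.3 points as well (SD 2.78, n = 2; exact permutation p = 0.333).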

How the data were processed

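The data are CUT&RUN peak lists, 1 per library, from 4 Corin libraries (2 of H3K27ac, 2 of H3K4me2), with 4 DMSO lists of the same marks and the 2 H3K4me3 lists of Corin for comparison. Per the submitters' processing notes, the tools included Trim Galore, Bowtie2, Picard and MACS2 with the build GRCh38 (hg38); the control and the calling threshold are not given in the sources used here. Each list holds the position of each peak and a score deposited by the authors, at least 50 in the 8 lists of both marks, with no definition given; it served to order or threshold peaks of the same list and nothing else. No peak of 292523 in the 12 lists ended past an hg38 chromosome end (0 peaks). The ATRA, LSD1 and IgG libraries (7) were not analysed here. Read depth is unknown, so no interval or floor that needs it was computed.

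Peaks of the 4 lists that overlapped by at least 1 bp were merged. TSSs were 84610 start positions from GENCODE release 44 (basic transcripts, protein-coding and lncRNA genes); promoters and 10 kb windows used the canonical TSS of 20007 protein-coding genes. Libraries were compared with exact two-sided permutation tests, and no test was made per gene or region. Sequences came from hg38 and tRNA genes from RefSeq (GRCh38.p14). The code was tested on simulated data. Python 3.11.15, numpy 2.4.6 and pandas 2.3.3 were used.

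Members, gene lists and naming rules were chosen with earlier results of these data known. Named genes were, per list, the 2 with the most and the 2 with the least H3K27ac minus H3K4me2 bp near the TSS and any member whose promoter class was not the commonest; the 5 widest regions and 5 genes with most regions per class; and the 5 largest and 5 smallest differences over all genes. 2 listed symbols, DDX58 (present as RIGI) and TRAC, did not match the annotation, and 2 members that met the naming rule are not reported here. Alternatives were equal peak numbers, a score of at least 100, 50% coverage, joining within 500 bp, other TSS distances and sets, other gene windows, a replicate block and leaving out each library; they were also applied to the TSS share of each class, which was added after seeing the data.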

Additional observations from a re-analysis of the deposited data

Results flagged for a closer look

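At IRF9 and RPS19 the direction of the difference parted between the treatments, with every library on its own side. The mean H3K27ac minus H3K4me2 coverage near the TSS of IRF9 was 160.5 bp in Corin and -352 bp in DMSO, where the libraries held 305 and 295 bp of H3K27ac and 721 and 583 bp of H3K4me2. At RPS19, which encodes a ribosomal protein of the small subunit, it was 2133.5 bp in Corin and -2272.5 bp in DMSO, where H3K27ac covered 1518 and 1273 bp and H3K4me2 3497 and 3839 bp. The difference between the treatments was not tested at either gene. The IRF9 value in Corin turned to -245.5 bp with peaks of a score of at least 100. At that score RPS19 no longer had both H3K27ac libraries above both H3K4me2 libraries, as 0 of the 15 ribosomal protein genes had.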

How the results depend on the processing

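With peaks cut to equal numbers (30029 per list), the TSS shares were 62.0% for both marks, 11.3% for H3K27ac alone and 56.2% for H3K4me2 alone; with a score of at least 100 they were 60.7%, 13.4% and 51.9%, with 50% coverage 44.6%, 12.7% and 56.9%, and with peaks up to 500 bp apart joined 58.0%, 5.45% and 42.1%. Leaving out 1 library at a time gave 53.9% to 55.9%, 7.81% to 13.4% and 39.5% to 47.6%. The class of both marks held 3377 regions with 50% coverage. H3K27ac alone held 1779 with the stricter score, 2495 with joining and 4245 to 11188 with 1 library left out, where a single library of 1 mark is then enough. Genes with more H3K27ac near the TSS numbered 819 over gene bodies and 437 to 816 with 1 library left out (816 without H3K27ac library 2, 710 without H3K4me2 library 1). Of 116 values of the 14 main results, 85 stayed on their side or within their spread, 31 moved and 0 turned. Counts and shares have no sign, so they could move but not turn in this tally. It thus leaves out the changed order of the TSS shares with 50% coverage, 44.6% for both marks and 56.9% for H3K4me2 alone. For differences between libraries only a change of sign could register, because no exact p could become small with so few libraries. The tally is therefore no measure of how stable the main results are. Peak number at equal numbers was not run, being equal by construction. With the replicate block, pairing libraries of the same number, the differences stayed at -0.34 (log2 peak number), -0.96 (covered length), -0.78 (width), -13.3 points (TSS share), 9.07 and -3.40 points (overlap), with an exact p of 0.5, the smallest that 4 arrangements can give. Deviations of same-numbered libraries correlated at 0.378 over 20007 genes, but there are 2 pairs and no label says whether equal numbers mean a shared culture or day. Of 87 named genes, 69 had libraries that did not overlap between the marks, and 11 of these turned direction under at least 1 alternative. Turns were not counted for the named genes whose libraries overlapped. Near-TSS differences turned at a score of at least 100 for AZU1 (-343.5 bp), IRF9 (-245.5) and RCOR3 (114, also at equal peak numbers). They turned within 2 kb for ANKRD13D (-312), AZU1 (-59.5), CITED2 (1488.5), MEF2C (626), RCOR3 (172) and ZFP36L2 (1507.5). In the gene body they turned for ANKRD13D (-1046), AZU1 (-979.5), CITED2 (996), COL23A1 (45024.5), H4C11 (-4.5), IRF9 (-94.5), JARID2 (4575), RCOR3 (355.5), RPL8 (256.5) and ZFP36L2 (1687). The cause was not tested. Depth is unknown, which limits what a missing peak can show.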

Other observations

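The turn seen at RPS19 was also counted over all genes. Of 20007 protein-coding genes, 100 had H3K4me2 broader in both DMSO libraries and H3K27ac broader in both Corin libraries near the TSS, and 0 had the reverse. H3K27ac was the broader mark of 122 genes in DMSO, and 84 genes had it broader in both treatments. The H3K27ac lists of DMSO are shorter than those of Corin, and the part of that in the count was not tested.

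H3K4me2 was broader than H3K27ac at 1 of 7 T lymphoid, 6 of 8 B lymphoid, 3 of 8 erythroid and 3 of 8 epithelial markers, beside 60.8% of all genes, and the 6 T lymphoid markers other than CD8A were at 0 bp for both marks. PAX5, the B cell identity factor, had 0 and 0 bp of H3K27ac against 7071 and 6847 bp of H3K4me2 within 10 kb of its TSS. CDH1, the epithelial cadherin, had 0 and 0 bp against 3221 and 2690 bp, and CD8A, the T cell co-receptor chain, 0 and 0 bp against 1654 and 1305 bp. KLF1, the erythroid factor, had 613 and 0 bp against 5208 and 5135 bp, and EPOR, the erythropoietin receptor, 2127 and 1659 bp against 9110 and 8445 bp. In contrast CD79A, a B cell receptor subunit, had more H3K27ac, at 4701 and 5504 bp against 3671 and 3299 bp. That separation was lost with equal peak numbers and with a score of at least 100, where 0 of 8 B lymphoid markers had H3K27ac broader. These 6 genes were chosen from the marker lists after their values were seen, and windows can hold peaks of neighbouring genes.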
